A study of Mus musculus with 1753 samples.

Results

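The FACIT collagens (fibril-associated collagens with interrupted triple helices) were followed in single fibroblasts and mural cells of adult mouse skeletal muscle. The family was taken as 8 genes, Col9a1, Col9a2, Col9a3, Col12a1, Col14a1, Col16a1, Col19a1 and Col22a1, and all 8 were found by symbol among the 46517 genes of the count table. A count was found for 7 of them in at least 1 of 1753 cells, and 5 had 1000 or more counts over all cells. The cells came from male mice of 10 to 20 weeks, all on a C57Bl6 background, and were sorted from dissociated muscle into plates for Smart-seq2, which copies full-length polyadenylated RNA and carries no molecular identifiers.

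The strain labels were C57BL6 (wild type, sorted with PDGFRα or PDGFRβ antibody), Acta2GFP, Cspg4dsRED and PdgfrbGFP (a reporter driven by the named gene), and PdgfraGFP - PdgfrbGFP pool (both reporter lines, with the soleus muscles of 1 mouse of each mixed before digestion). All sorts left out CD31-positive endothelial cells, and elastase was added to the digestion for the Acta2GFP muscle. The labels named no animal, and replicates are therefore strain labels, each taken to be a different mouse or set of mice; the PdgfrbGFP and pool labels may share a mouse line, and p-values measure the spread between these labels. Each cell carried 1 of 10 cluster labels that the authors had made from the same counts. By the study's names, clusters 1, 3, 5, 6 and 8 (1116 cells) were endomysial fibroblasts, which lie around single muscle fibres. Clusters 2 and 9 (328 cells) were perimysial, around bundles of fibres, and cluster 4 (60 cells) was paramysial. Cluster 10 (62 cells), a fibroblast cluster that the study set apart by Cspg4, Pdgfra and Ngfr, is called by its number, and cluster 7 (187 cells) was taken as mural, that is, pericytes and vascular smooth muscle cells. Because the clusters rest on these counts, a call between clusters describes the clustering and is not independent evidence.

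FACIT collagens do not build fibrils of their own. They sit on the surface of fibrils made of types I, II, III, V and XI collagen, with a collagenous part held to the fibril and a non-collagenous part that reaches into the matrix. Type IX, a heterotrimer of the chains Col9a1, Col9a2 and Col9a3, coats type II collagen fibrils in cartilage. Types XII and XIV are homotrimers of Col12a1 and Col14a1 on type I fibrils, with type XII known from tendon, ligament and fascia. Type XVI is found at fibrils and basement membranes of many tissues, type XIX at basement membrane zones, and type XXII at tissue junctions, among them the junction of muscle and tendon.

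The shared design can be read in the coding sequence. In GENCODE M21 (GRCm38), a triple helix appears as runs of codon triplets that each begin with a glycine codon. Counting runs of 4 or more such triplets, Col1a1, the main chain of type I fibrils, had a longest run of 338 triplets. The longest run was 32 triplets in Col12a1 and in Col14a1, 52 in Col16a1 and 113 in Col22a1 and in Col9a2. The runs were 5 in Col12a1, 5 in Col14a1, 21 in Col16a1, 10 in Col22a1 and 6 in Col9a2. They held 8.12% of the 3065 codons of Col12a1 and 13.8% of the 1798 codons of Col14a1, against 62.1% in Col16a1, 63.2% in Col22a1 and 85.0% in Col9a2. The end of the last run is shown for the 5 members with 1000 or more counts, and for Col1a1 as the fibril-forming contrast, because this is where the family resemblance is plainest. Each stretch is 27 codons, written 5′ to 3′ along the gene, with the glycine codons of the run and any cysteine codon at its end in capitals.
Col12a1: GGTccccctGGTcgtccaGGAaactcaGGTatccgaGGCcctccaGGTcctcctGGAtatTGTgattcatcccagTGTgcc
Col14a1: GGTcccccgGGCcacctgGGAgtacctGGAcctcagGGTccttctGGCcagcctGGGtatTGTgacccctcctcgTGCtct
Col16a1: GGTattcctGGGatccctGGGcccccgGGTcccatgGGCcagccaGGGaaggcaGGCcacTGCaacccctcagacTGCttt
Col22a1: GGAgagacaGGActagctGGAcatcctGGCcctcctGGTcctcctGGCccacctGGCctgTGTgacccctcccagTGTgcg
Col9a2: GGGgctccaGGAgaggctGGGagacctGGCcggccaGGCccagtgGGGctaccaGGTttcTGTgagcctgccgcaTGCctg
Col1a1: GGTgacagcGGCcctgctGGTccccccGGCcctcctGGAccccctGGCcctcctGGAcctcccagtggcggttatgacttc
The stretches lie within coding exons at chr9:79602231-79602311 on the minus strand (Col12a1), chr15:55518241-55518321 on the plus strand (Col14a1), chr4:130098949-130099029 on the plus strand (Col16a1), chr15:71799381-71799461 on the minus strand (Col22a1) and chr4:121054655-121054735 on the plus strand (Col9a2). That of Col1a1, at chr11:94950187-94950353 on the plus strand, spans an intron. In all 8 members the run ends with a pair of cysteine codons that have 4 codons between them, and the Col1a1 stretch holds none.

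Each cell was scaled to 500000 counts without spike-in RNA, and a level is the mean over strain labels with 3 or more cells, given with the SD over those labels. Depth ran from 46097 to 1055869 counts a cell with a median of 258251. It differed between classes, with medians of 276880 in endomysial, 257229 in perimysial, 595321 in paramysial, 187616 in cluster 10 and 156959 in mural cells. Markers listed for the classes were checked. The 5 fibroblast markers summed to between 6667 and 14059 scaled counts in every strain of the 4 fibroblast classes and to between 110.7 and 623.7 in mural cells, whose 5 mural markers summed to between 7050 and 10433. The 5 perimysial markers summed to a mean of 7368 in perimysial, 3398 in paramysial and 375.8 in endomysial cells. The 4 paramysial markers, Postn, Thbs4, C1qtnf3 and Cthrc1, summed to 5839 in paramysial and 5594 in perimysial cells. Their sum thus set both apart from endomysial cells (395.3) but not from each other. Thbs4 was on the perimysial list too, and the study reported Thbs4, C1qtnf3 and Cthrc1 in both classes. It described paramysial cells by Pdgfra and Postn with low Thbs1 and Col11a1. The 3 markers of cluster 10, Ngfr, Cspg4 and Pdgfra, summed to between 513.8 and 1341 in its strains and to between 327.9 and 563.4 in endomysial cells, so these ranges overlapped.

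Of the 5 members with many counts, Col12a1 led perimysial cells, Col14a1 led endomysial and paramysial cells, and Col9a2 led cluster 10. Per kb of exon, which allows genes to be compared, Col12a1 led perimysial cells at 30.0 scaled counts per kb, followed by Col22a1 at 13.1, Col16a1 at 10.9 and Col14a1 at 0.688. Col14a1 led endomysial cells at 21.3 per kb, above Col16a1 at 3.51 and Col12a1 at 1.17. Paramysial cells held Col14a1 at 28.0, Col12a1 at 11.5 and Col16a1 at 8.97 per kb. In cluster 10 the leading member was Col9a2 at 20.2 per kb, with Col16a1 at 2.35 and Col14a1 at 2.26. In mural cells no member passed 2.19 per kb, the value of Col14a1.

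**Figure D1:**
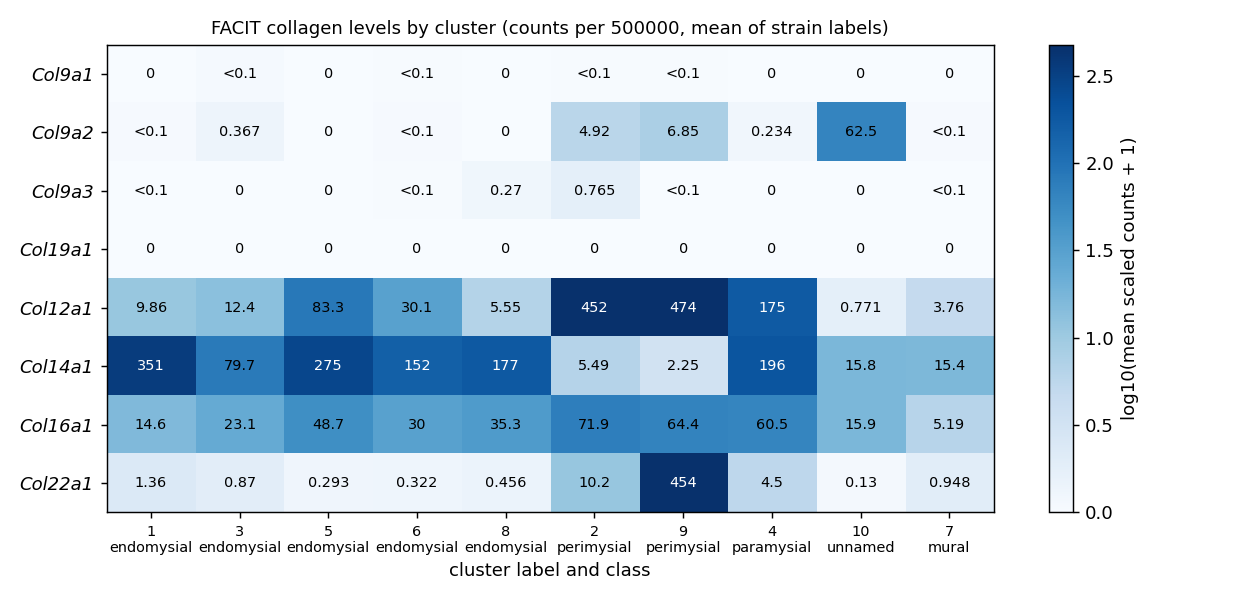
Mean level of each FACIT collagen (rows) in each cluster (columns, with class names), in counts per 500000 averaged over strain labels with 3 or more cells; the colour is log10 of the level plus 1. Col12a1 is darkest in clusters 2 and 9 (452 and 474), Col14a1 in cluster 1 (351), Col22a1 in cluster 9 (454) and Col9a2 in cluster 10 (62.5), and Col19a1 is 0 throughout.

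Col12a1 (ENSMUSG00000032332, chr9:79598991-79718831, minus strand) had 124668 counts in 984 cells. In perimysial cells its level was 542 in Acta2GFP, 604 in C57BL6, 249.9 in Cspg4dsRED, 398 in the pool and 493 in PdgfrbGFP. In endomysial cells it was 12.3, 30.9, 24.7, 8.13 and 13.2 in the same order, so that every perimysial value lay above every endomysial one. Col12a1 was higher in perimysial than in endomysial cells by a log2 fold change of 4.92 (edgeR quasi-likelihood test with the strain as a block, Benjamini-Hochberg adjusted p = 0.000341), with a mean paired difference of 4.91 ± 0.80 (SD, n = 5) in log2 CPM (counts scaled to the library). The share of cells at 100 or more scaled counts was 78.3% in perimysial and 4.04% in endomysial cells as means over strains. The share with any count was 94.7% and 47.6%, and after each cell had been thinned to 40000 counts it was 90.7% and 20.6%.

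By cluster, Col12a1 ran from 474 ± 33.6 (SD, n = 4) in cluster 9 and 452 ± 177 (n = 5) in cluster 2 to 0.771 ± 0.760 (n = 3) in cluster 10. Clusters 9 and 2 overlapped over strains, as did every pair of neighbours in this order except clusters 6 (30.1 ± 18.8, n = 4) and 3 (12.4 ± 4.38, n = 4). Cluster 5 stood out among the endomysial clusters at 83.3 ± 69.2 (n = 3), but its strains were far apart, with 120.1 in C57BL6, 126.3 in PdgfrbGFP and 3.45 in the pool. Its 31 cells make this the smallest cluster.

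Col14a1 (ENSMUSG00000022371, chr15:55307750-55520803, plus strand), the other large homotrimer of type I fibrils, had 140711 counts in 1213 cells and the opposite distribution. In endomysial cells its level was 107.8 in Acta2GFP, 183.7 in C57BL6, 123.6 in Cspg4dsRED, 156.1 in the pool and 175.7 in PdgfrbGFP. In perimysial cells the same strains had 3.39, 9.29, 0.881, 6.75 and 3.80, all below the endomysial values. Col14a1 was lower in perimysial cells by a log2 fold change of -5.40 (edgeR quasi-likelihood test, Benjamini-Hochberg adjusted p = 0.00107). Within the endomysium Col14a1 was graded: 351 ± 71.0 (n = 4) in cluster 1, 275 ± 35.5 (n = 3) in cluster 5, 177 ± 53.5 (n = 4) in cluster 8, 152 ± 42.9 (n = 4) in cluster 6 and 79.7 ± 27.5 (n = 4) in cluster 3. Neighbours in that order overlapped over strains except clusters 5 (234.4 to 300.2) and 8 (98.9 to 219.2). The ends did not overlap, since cluster 1 spanned 263.6 to 429.9 and cluster 3 spanned 56.0 to 116.9. The share of cells at 100 or more fell in the same order at its ends, 71.7% in cluster 1 and 25.5% in cluster 3.

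Col16a1 (ENSMUSG00000040690, chr4:130047840-130099283, plus strand) was the member spread most evenly. It had 39299 counts in 736 cells. Its perimysial level was 51.1 in Acta2GFP, 74.99 in C57BL6, 56.1 in Cspg4dsRED, 118.5 in the pool and 66.6 in PdgfrbGFP, against 12.4, 26.3, 26.4, 31.7 and 21.7 in endomysial cells. The ranges did not overlap, and Col16a1 was higher in perimysial cells by a log2 fold change of 1.61 (edgeR quasi-likelihood test, Benjamini-Hochberg adjusted p = 0.019). That call was lost when any strain but Cspg4dsRED was left out, with adjusted p between 0.0596 and 0.101 in those edgeR fits. All neighbouring clusters overlapped in the order of Col16a1, from cluster 2 (71.9 ± 36.2, n = 5) down to cluster 7 (5.19 ± 5.83, n = 5).

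Of 14121 genes tested between perimysial and endomysial cells, 5.57% were called. Here 5 members were tested and 4 were called, Col12a1, Col16a1 and Col22a1 higher and Col14a1 lower. Col9a2 was the one tested member without a call, at a log2 fold change of 5.59 (edgeR quasi-likelihood test, Benjamini-Hochberg adjusted p = 0.119), with perimysial levels of 6.77, 0.276, 4.31, 21.9 and 0 in the strain order above. Under DESeq2 Col9a2 was called (adjusted p = 5.55e-05). Col9a1, Col9a3 and Col19a1 did not pass the filter on low counts in this or any other comparison.

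**Figure D2:**
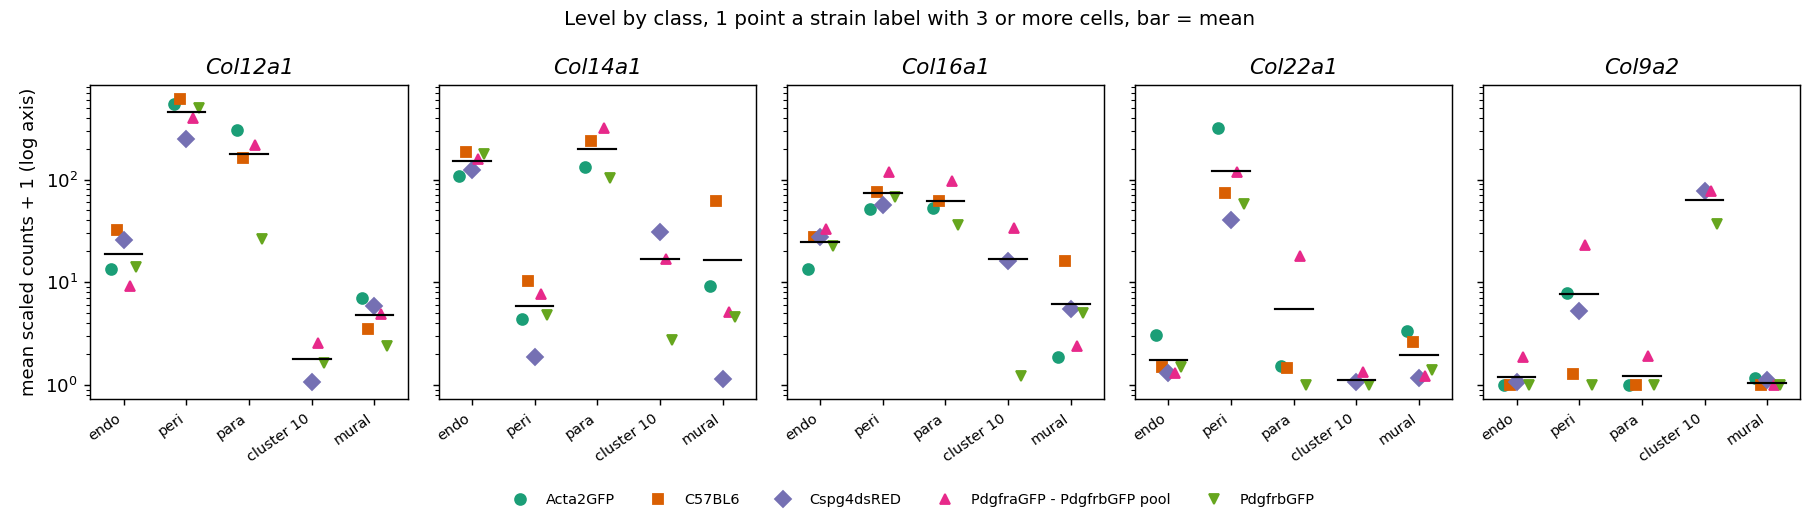
Level of 5 FACIT collagens by class on a log axis (mean scaled counts plus 1), 1 point for each strain label with 3 or more cells and a bar at the mean. All 5 perimysial values of Col12a1 lie above all endomysial ones and the reverse holds for Col14a1, while paramysial cells carry both (means 175 and 196).

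Transcripts of fibrillar collagen chains also differed between the same classes, while fibrils themselves were not measured. Of 9 fibrillar collagen genes, 5 were higher and 3 lower in perimysial cells, with a median log2 fold change of 1.41 against -0.19 over all genes tested. Col2a1, Col11a2 and Col11a1, chains of cartilage-type fibrils, were higher by 9.08, 9.04 and 8.02, and Col1a1 and Col1a2 by 1.59 and 1.41. Of 5 cartilage markers, Col2a1 among them, only 1 had a mean of 1 or more scaled counts in endomysial cells. The fold change of Col2a1 may therefore rest on a level near the floor there. Col3a1, Col5a1 and Col5a3, chains of types III and V, had log2 fold changes of -1.996, -2.01 and -3.36 (edgeR quasi-likelihood test, Benjamini-Hochberg adjusted p = 0.000325, 0.00276 and 0.0356). The class with high Col12a1 and Col22a1 was the one with high type I and XI chains, and the class with high Col14a1 the one with high Col3a1, Col5a1 and Col5a3. Within the perimysial class this did not hold for Col22a1 and type I chains. Col22a1 was high in cluster 9, where Col1a1 and Col1a2 were lower than in cluster 2. The third type V chain, Col5a2, was not called, at -0.53 (edgeR quasi-likelihood test, Benjamini-Hochberg adjusted p = 0.166). High Col11a1 and low Col3a1 were among the traits by which the study named the perimysial clusters, so their differences here are not independent of that naming.

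Among 17 genes of the fibril surface and of known partners of FACIT collagens, 15 were tested, 8 were higher in perimysial cells and 1 was lower, with a median log2 fold change of 1.70. Tnc (tenascin C, which binds type XII collagen) was higher by 8.39. Comp and Matn3, cartilage matrix proteins that bind type IX collagen, were higher by 3.70 and 8.47. Matn3 is also among the 5 cartilage markers, of which only 1 had a mean of 1 or more scaled counts in endomysial cells. Its fold change may therefore rest on a level near the floor there. The small proteoglycans Fmod and Kera were higher by 5.72 and 8.21, while Lum, of the same family, had a log2 fold change of -2.71 (edgeR quasi-likelihood test, Benjamini-Hochberg adjusted p = 0.000585). Of 27 genes for collagen processing, 5 were higher and 5 lower, and the list's median of 0.30 was nearer to that of all genes. P3h2, a prolyl 3-hydroxylase, was higher by 6.23, and P4ha2, a subunit of prolyl 4-hydroxylase, had -3.83. Of 9 collagen receptor genes 2 were higher (Cd44 and Itgb1, by 1.41 and 0.54) and 1 lower (Ddr2, -0.88). Of 8 regulators of cartilage and tendon, the tendon factors Scx and Mkx were higher by 8.57 and 8.54, and Sox5, Sox6, Sox9, Egr1, Egr2 and Trps1 were not called. Scx was also among the perimysial markers summed above. The study had listed Col12a1, Col11a2, Tnc and Scx among genes of perimysial cells, and had named Col12a1 as shared with paramysial cells.

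In single cells Col12a1 and Col14a1 were found together in few cells outside the paramysial class. Of 272 perimysial cells with 100 or more scaled counts of Col12a1, 4 also had 100 or more of Col14a1, where 5 of all 328 did. Of 1116 endomysial cells, 477 had Col14a1 at that level and 45 had Col12a1. Both were found in 21, which is 4.40% and 46.7% of each. In paramysial cells 30 of 60 had Col12a1 and 46 had Col14a1, and 24 had both, or 40.0% of the cluster. At the next rung, 16.1% of the 31 cells of cluster 5 had both, and no other cluster passed 3.11%. Of the 30 paramysial cells with Col12a1, 80.0% had Col14a1, against 76.7% of all 60. The number with both was thus near what the share of each member alone would give. Both counts in paramysial cells rest on the deepest cells of the series, and 45 of the 60 were soleus cells of the pool; the part of depth and of that plate was not tested. Within the other strains both members were found together in 3 of 6 Acta2GFP, 2 of 3 C57BL6, 0 of 1 Cspg4dsRED and 0 of 4 PdgfrbGFP paramysial cells.

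**Figure D3:**
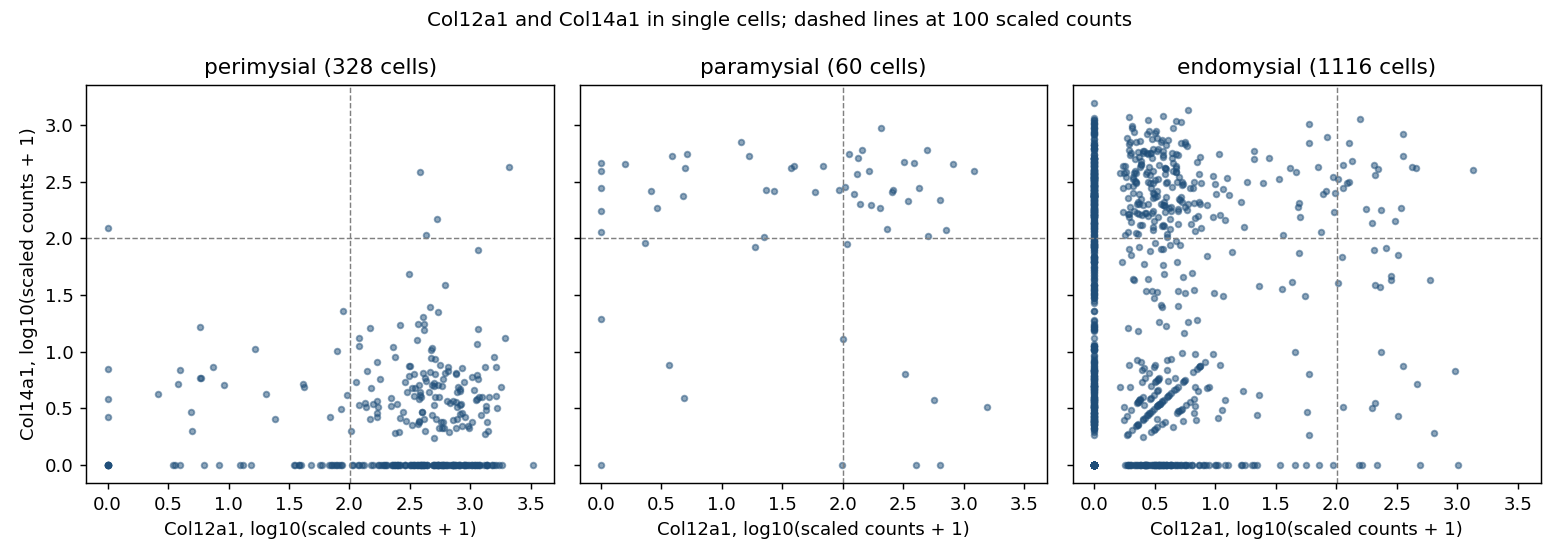
Col12a1 (x) against Col14a1 (y) in each perimysial, paramysial and endomysial cell, as log10 of scaled counts plus 1, with dashed lines at 100 scaled counts. The upper right part of each panel holds 4 of 328 perimysial, 24 of 60 paramysial and 21 of 1116 endomysial cells.

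Paramysial levels of Col12a1 were 299 in Acta2GFP, 159 in C57BL6, 216 in the pool and 25.1 in PdgfrbGFP. Those of Col14a1 were 130.1, 236, 318 and 102.2. Against endomysial cells the log2 fold change was 3.08 for Col12a1, with all 4 strains above, and 0.21 for Col14a1, with 3 of 4 above. None of the 4 members tested was called (edgeR quasi-likelihood test, Benjamini-Hochberg adjusted p = 0.178 for Col12a1 and 0.9 for Col14a1). At an unadjusted p under 0.05 by edgeR, where 981 of 14533 genes lay, the count was 1, Col12a1. DESeq2 also called Col12a1 (adjusted p = 0.0102), and its count over all genes is given in the closing section. Here 0.0963% of 14533 genes were called by edgeR, 14 in all. Among these were Col5a2, Aspn and Thbs4, a fibril chain and fibril-surface proteins, higher by 1.497, 1.99 and 3.39. Thbs4 was among the genes by which the study named the paramysial cells, so its call is not independent of that naming.

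Against perimysial cells, Col14a1 was higher in paramysial cells in 4 of 4 strains, by 5.23 on the log2 scale (edgeR quasi-likelihood test, Benjamini-Hochberg adjusted p = 0.00142). Col22a1 was lower, at -7.11 in 4 of 4 strains (edgeR quasi-likelihood test, Benjamini-Hochberg adjusted p = 0.0274). Col12a1, at -2.13 with groups that did not overlap, Col16a1, at -0.63, and Col9a2, at -5.28, were not called (edgeR quasi-likelihood test, Benjamini-Hochberg adjusted p = 0.109, 0.761 and 0.607). The calls were thus on 2 of 5 members tested, where 0.871% of 12861 genes were called. The call on Col22a1 was lost without PdgfrbGFP (edgeR adjusted p = 0.101), and Col12a1 was called under DESeq2 (adjusted p = 0.0419), without a filter on low counts (3e-04) and without Acta2GFP (0.0328). Of 9 fibrillar genes 4 were higher in paramysial cells, Col3a1, Col5a2, Col5a1 and Col5a3, by 2.85, 1.91, 3.52 and 3.42. Col2a1 and Col11a2 were lower, with log2 fold changes of -9.19 and -8.66. In paramysial cells too only 1 of the 5 cartilage markers, Col2a1 among them, had a mean of 1 or more scaled counts.

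Col22a1 (ENSMUSG00000079022, chr15:71795795-72034227, minus strand), the junction collagen, split the perimysial cells. The study had already reported it in a distinct set of these cells. Col22a1 had 22656 counts in 385 cells. In cluster 9 its level was 477 in Acta2GFP, 552 in C57BL6, 464 in the pool and 322 in PdgfrbGFP. In cluster 2 the same strains had 7.82, 31.5, 1.41 and 9.93, and Cspg4dsRED, whose 2 cluster 9 cells were too few to enter, had 0.459. The groups did not overlap, and Col22a1 was higher in cluster 9 by a log2 fold change of 5.98 (edgeR quasi-likelihood test, Benjamini-Hochberg adjusted p = 0.0186), with a mean paired difference of 6.26 ± 2.23 (SD, n = 4) in log2 CPM. Of 11843 genes 0.92% were called. The adjusted p rose to between 0.0531 and 0.087 in edgeR fits without Acta2GFP, C57BL6 or PdgfrbGFP, at log2 fold changes of 5.95 to 6.60.

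The clusters differed both in the number of cells with Col22a1 and in the amount in cells that held it. Of cells with a count, 0 in cluster 9 were under 10 scaled counts, against 46 in cluster 2. In cluster 9, 52 of 59 cells (88.1%, exact 95% binomial interval 77.1% to 95.1%, counting error only) had 100 or more scaled counts and 4 had none. In cluster 2, 11 of 269 (4.09%, interval 2.06% to 7.20%) reached 100 and 206 had none. The cells of cluster 2 were not graded towards the threshold, with 46 holding a count but under 10, 6 between 10 and 100 and 11 above, and the highest at 1122 against 1252 in cluster 9. Of those 11 cells, 9 were C57BL6 and 2 were PdgfrbGFP. Of the 5 members tested, Col22a1 was the one called. Col12a1 had a log2 fold change of -0.23, Col16a1 of 0.06, Col14a1 of -1.62 and Col9a2 of 5.71 (edgeR quasi-likelihood test, Benjamini-Hochberg adjusted p = 0.846, 0.994, 0.796 and 0.734). Col14a1 was below cluster 2 in 4 of 4 strains, with groups that did not overlap, and Col9a2 was above in 2 strains and below in 1. Of 63 perimysial cells with 100 or more scaled counts of Col22a1, 56 had Col12a1 at that level and 14 had Col16a1, where 272 and 81 of all 328 perimysial cells did.

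**Figure D4:**
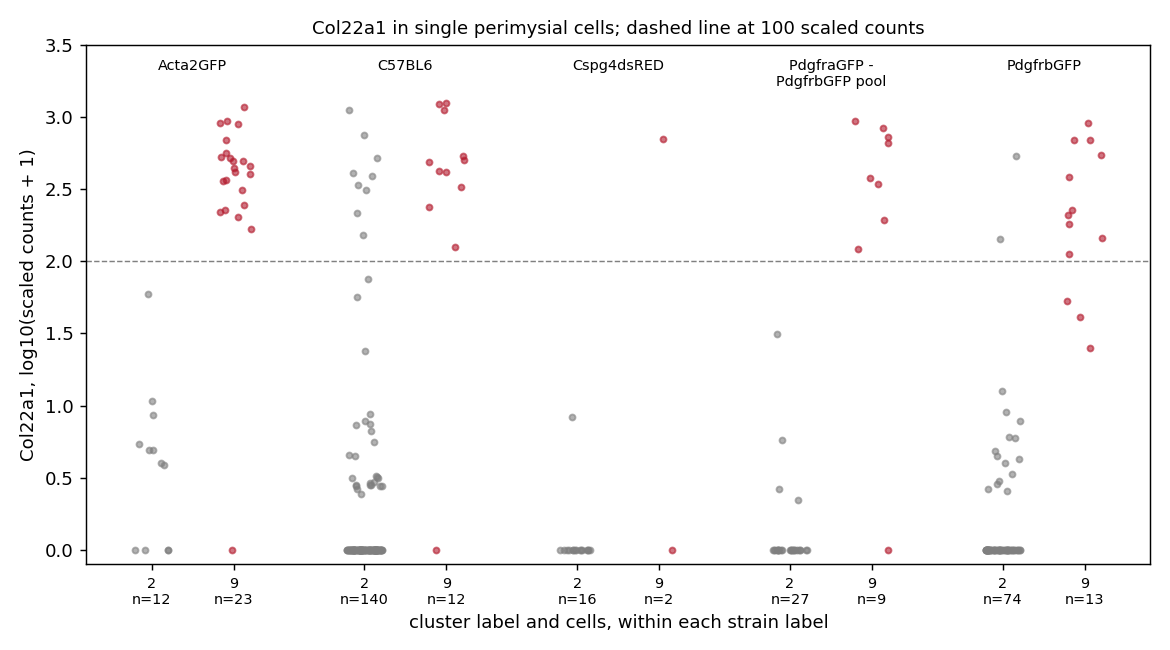
Col22a1 in each perimysial cell (log10 of scaled counts plus 1) by strain label and cluster label, grey for cluster 2 and red for cluster 9, with a dashed line at 100 scaled counts. In cluster 9, 52 of 59 cells lie above the line, in cluster 2, 11 of 269.

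In endomysial and mural cells Col22a1 was near 0, at 0.744 ± 0.762 (SD, n = 5) and 0.948 ± 0.990 (n = 5). In paramysial cells it was 4.50 ± 8.34 (n = 4), with 17.0 in the pool and 0 to 0.529 in the other strains, and 2 of 60 cells reached 100. No endomysial cell of 1116 reached 100, which allows a share of up to 0.269%. It was higher in perimysial than in endomysial cells by a log2 fold change of 7.68 (edgeR quasi-likelihood test, Benjamini-Hochberg adjusted p = 0.000187). The perimysial level ran from 39.2 in Cspg4dsRED to 316 in Acta2GFP, where 11.1% and 65.7% of the perimysial cells were of cluster 9. In C57BL6, with 7.89% of them in cluster 9, it was 72.7; the part of this share in the level was not tested. In clusters 9 and 2 the fibril partners also differed: Fn1 was higher in cluster 9 by 1.61, and Col1a1, Col1a2, Dcn, Prelp and Kera were lower by log2 fold changes of -0.89, -1.02, -1.10, -1.44 and -3.08. Of the collagen processing genes Pcolce2, which helps to cleave procollagen, Adamts2 and Lox were lower, at -5.86, -2.31 and -1.53, and of the receptors Itga2 was lower, at -8.65.

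Col9a2 (ENSMUSG00000028626, chr4:121039385-121055322, plus strand), 1 of the 3 type IX chains, was found in 59 cells, and none of these had a count of Col9a1 or Col9a3. Of its 2850 counts, 2119 lay in cluster 10. Its level there was 75.6 in Cspg4dsRED, 76.3 in the pool and 35.6 in PdgfrbGFP, and in the endomysial cells of these strains 0.0706, 0.860 and 0.00243. The groups did not overlap. The difference missed the threshold at a log2 fold change of 9.57 (edgeR quasi-likelihood test on 3 strains, Benjamini-Hochberg adjusted p = 0.122). It was called under DESeq2 (adjusted p = 3.89e-16), without a filter on low counts (1.43e-05), with plate and muscle as the unit (0.0285), without Cspg4dsRED (0.00545) and without the pool (0.0244).

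In cluster 10 Col9a2 was held by a minority of cells. Of 62 cells, 14 (22.6%, exact 95% binomial interval 12.9% to 34.97%) had 100 or more scaled counts and 44 had none, with a highest cell of 789. The 14 cells came from all 3 strains, 7 of 37 in Cspg4dsRED, 6 of 17 in the pool and 1 of 8 in PdgfrbGFP. Col9a1 and Col9a3 had no count in any cell of cluster 10, which allows a share of up to 4.84%. Over the series Col9a1 (chr1:24177610-24252684) had 5 counts in 5 cells. Col9a3 (chr2:180597790-180622189) had 191 counts in 9 cells, of which 145 lay in 1 C57BL6 cell of cluster 2, and 6.07% of its exon bases overlap Tcfl5 on the other strand. Col19a1 (chr1:24261890-24587472) had no count in 1753 cells.

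Against endomysial cells, 55 of 12455 genes (0.442%) were called in cluster 10, and none of the 4 members tested was among them. At an unadjusted p under 0.05 by edgeR, where 1113 of the 12455 genes lay, the members were Col9a2, Col12a1 and Col14a1. DESeq2 called these 3, and its count over all genes is given in the closing section. Col12a1 and Col14a1 had log2 fold changes of -4.91 and -3.83, with all 3 strains below, and Col16a1 had -1.62 with strains at 14.9, 32.5 and 0.221. Sox9, a transcription factor needed for cartilage genes such as those of type IX collagen, was higher by 3.87 (edgeR quasi-likelihood test, Benjamini-Hochberg adjusted p = 0.0127). Matn2 and Thbs4 of the fibril-surface list were higher by 2.96 and 1.95 and Aspn lower at -5.77. Of the 5 cartilage markers, Acan and Hapln1 had no count in cluster 10, and the list summed to between 12.9 and 38.7 scaled counts a strain, against 1198 to 5160 in perimysial cells, where nearly all of it was Comp. The 5 Schwann cell markers summed to between 7.80 and 44.4 in cluster 10 and to between 4.62 and 18.0 in endomysial cells.

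Mural cells held little of any member. Col12a1 was between 1.40 and 6.08 in the 5 strains, against 54.8 to 271 in fibroblasts of all clusters together. Its log2 fold change was -5.03, and Col22a1, Col14a1 and Col16a1 had -5.41, -4.91 and -3.81, each lower in 5 of 5 strains (edgeR quasi-likelihood test, Benjamini-Hochberg adjusted p = 0.00087, 0.00163, 0.024 and 0.023). All 4 members tested were called, where 15.4% of 13880 genes were. In edgeR fits without Acta2GFP, without the pool or without PdgfrbGFP, 2 members were called, and the calls on Col14a1 and Col16a1 were lost. Without Cspg4dsRED that on Col16a1 was lost (edgeR adjusted p = 0.061), and without the strain block that on Col14a1 (edgeR adjusted p = 0.106). The mural level of Col14a1 was 60.7 in C57BL6 and 0.147 to 8.14 elsewhere. The C57BL6 value came from 9 cells, whose 5 immune markers summed to 390.2 scaled counts, against 0.437 to 6.83 in mural cells of the other strains, and whose fibroblast markers summed to 402.7; their part in the result was not tested. Of 9 fibrillar genes 7 were lower in mural cells, with a median log2 fold change of -4.31 against -0.46 over all genes. Of 9 receptor genes 5 were lower, Itga2, Mrc2, Itga11, Cd44 and Ddr2, with log2 fold changes of -6.95, -6.06, -4.90, -3.52 and -1.27, and 2 were higher, Itga1 and Itgb1, by 2.58 and 1.26.

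For 2 strain labels the muscle was known. In the pool soleus and gastrocnemius cells lay on different plates, and in PdgfrbGFP on the same plate. In perimysial cells the pool had Col22a1 at 240 in soleus and 18.8 in gastrocnemius, and PdgfrbGFP had it at 122 and 14.3. At 100 or more scaled counts it was found in 7 of 16 soleus and 1 of 20 gastrocnemius cells of the pool (43.8%, exact 95% binomial interval 19.8% to 70.1%, and 5.00%, interval 0.127% to 24.9%). In PdgfrbGFP it was found in 6 of 16 and 2 of 19 (37.5%, interval 15.2% to 64.6%, and 10.5%, interval 1.30% to 33.1%). Both strains went the same way, but the intervals overlap, and the difference was not tested. The clusters that made up the class also differed between muscles: cluster 9 held 8 of 16 soleus and 1 of 20 gastrocnemius cells in the pool, and 9 of 16 and 1 of 19 in PdgfrbGFP. With 1 gastrocnemius cell of cluster 9 in each label, the muscles were not compared within that cluster. For Col12a1 these cells had, soleus first, 478 and 334 (pool) and 489 and 496 (PdgfrbGFP).

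In endomysial cells the muscles differed in opposite ways in the 2 labels. Col14a1 was 194 in soleus and 134.7 in gastrocnemius in the pool, but 106.9 and 207.9 in PdgfrbGFP. Soleus and gastrocnemius had Col12a1 at 7.28 and 8.61 (pool) and at 30.5 and 12.7 (PdgfrbGFP), and Col16a1 was 39.1 and 27.6, then 20.6 and 34.9. Of 16337 genes 0 (0%) were called, with 807 at an unadjusted p under 0.05 by edgeR and 111 called by DESeq2. Of the 4 members tested none was called by edgeR or DESeq2 and none had an unadjusted p under 0.05. The edgeR quasi-likelihood log2 fold changes were 0.41 for Col12a1, -0.31 for Col14a1, -0.30 for Col16a1 and 0.86 for Col22a1.

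**Figure D5:**
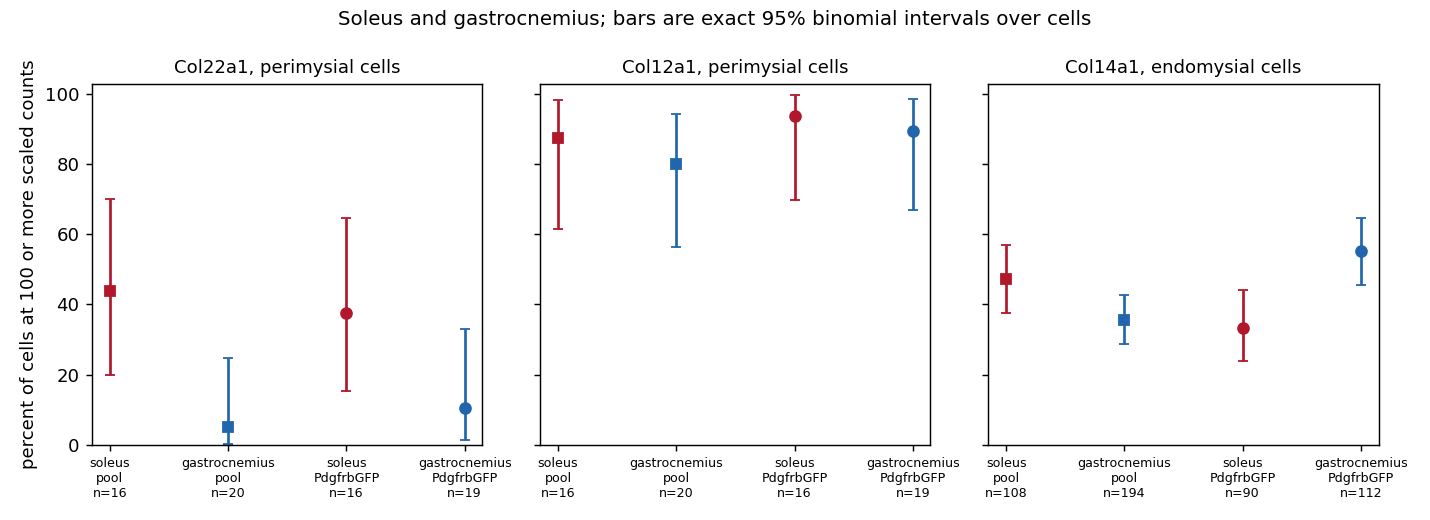
Percent of cells at 100 or more scaled counts of Col22a1 and Col12a1 (perimysial) and Col14a1 (endomysial) in soleus (red) and gastrocnemius (blue), squares for the pool and circles for PdgfrbGFP, with exact 95% binomial intervals over cells. Col22a1 is at 43.8% and 37.5% in soleus against 5.00% and 10.5% in gastrocnemius, and Col14a1 goes up in one label and down in the other.

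The genes most like each member were sought over 40 sums of cells by cluster and strain among 16799 genes, by the correlation of log2 CPM after strain means had been subtracted. The sums share strains and clusters, so the values describe these libraries only. Nearest to Col12a1 were Tnmd (r = 0.866), which encodes tenomodulin, a tendon membrane protein, then Zfp185, Cilp2, Fibin and Fmod (0.804 to 0.811). Nearest to Col14a1 were Ly6a (0.941), which encodes the Sca-1 antigen, Dpt (0.933), a dermatopontin gene whose product binds decorin and collagen, Cd248, Ms4a4d and Cadm3. Nearest to Col22a1 were Ptprt (0.914), Gm16308 (0.902), Syt7, Gm17232 and Gm43366. Gm16308 lies within Col22a1 on the opposite strand and shares 16 exon bases with it, 0.174% of the exon bases of Col22a1. The use of strand in counting was not stated, so reads on those bases cannot be told apart. Nearest to Col16a1 were Rin2 (0.862), Fzd1, Itgbl1, Cilp and Gm26880, and nearest to Col9a2 were Col26a1 (0.833), St8sia2, Gm26902, Vstm2a and St14. Among the members, Col12a1 went with Col22a1 (r = 0.615) and Col16a1 (0.595) and against Col14a1 (-0.32), and Col14a1 against Col22a1 (-0.514).

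Col20a1, the one further FACIT chain listed, passed the filter in all 7 comparisons and was called in none (edgeR quasi-likelihood test, Benjamini-Hochberg adjusted p between 0.116 and 1).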

How the data were processed

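Smart-seq2 reads of single cells were demultiplexed, trimmed and mapped to GRCm38 by the authors with TopHat2, and featureCounts gave the reads of each gene. The deposited values are raw counts per gene and cell. The annotation release and the use of strand are not given in the sources used here. Cells were filtered and clustered by the authors, who removed cells with high gene numbers as possible doublets; no doublet caller was run here. The extraction note of the labels names the heart, while the tissue label names skeletal muscle.

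Of 1754 columns, 1753 carried a labelled cell and 1 was not used here. Spike-in RNA (1.31% of counts) was left out. Of 46517 identifiers, 46005 matched GENCODE M21. Cells were scaled to 500000 counts, and counts were summed per class and strain with 3 or more cells. Sums were tested with edgeR 4.0.16 (TMM, filterByExpr, glmQLFit and glmQLFTest in R 4.3.3) with the strain as a block, Benjamini-Hochberg adjusted over all genes tested, and called under 0.05; the test was tried on simulated counts. Alternatives were RLE size factors, DESeq2 1.42.0, no filter, no block, plate and muscle as the unit, and each strain left out. For levels they were all cells weighted alike, a minimum of 10 cells, and detection at 10 scaled counts. Intervals cover counting error only, and an upper limit for 0 is 3 counts of the total. Named genes were the 8 members, the called genes of fixed lists and the 5 genes most like each member. Members and lists were chosen with earlier results of these data known.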

Additional observations from a re-analysis of the deposited data

Results flagged for a closer look

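With 5 members in 4 classes of 4 or 5 strain labels, 20 groups were checked for a strain far from the others, by the gap to its nearest neighbour over the group's range, and 7 values were far. For normally spread values chance gives about 1 in 20 groups. These levels are skewed, and Col9a2 in paramysial cells is at 0 in all strains but 1, so that rate may not hold here. Mural cells of C57BL6 (9 cells) had 60.7 scaled counts of Col14a1, against 0.147 to 8.14 in the other strains, and 15.2 of Col16a1, against 0.859 to 4.46. Col22a1 was 2.10 in endomysial cells of Acta2GFP, against 0.297 to 0.507. It was 17.0 in paramysial cells of PdgfraGFP - PdgfrbGFP pool, against 0 to 0.529, and 316 in perimysial cells of Acta2GFP, against 39.2 to 117.1. In Acta2GFP 65.7% of perimysial cells were of cluster 9. Col9a2 in the pool was 0.860 in endomysial and 0.934 in paramysial cells, where the other strains had at most 0.0706 and 0.

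The difference between soleus and gastrocnemius endomysial cells, in log2 CPM, had opposite signs in the pool and in PdgfrbGFP for 3 members. It was -0.32 and 1.15 for Col12a1, 0.42 and -1.04 for Col14a1, and 0.44 and -1.05 for Col16a1. Each sign comes from 1 label, and the difference between labels was not tested.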

How the results depend on the processing

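Of 257 fold changes of members under another setting, 217 kept their direction and their side of the threshold, 14 passed it, 16 lost it and 10 changed sign. None of those 10 was a called value: Col22a1 between paramysial and endomysial cells was 0.0129 with RLE size factors, 0.0327 with DESeq2, 2.44 without the replicate block, and 0.23 to 0.78 without Acta2GFP, C57BL6 or PdgfrbGFP, Col14a1 there was -0.0388 without the pool (to 0.47 without PdgfrbGFP), and Col16a1 between clusters 9 and 2 was -0.0024 with no filter, -0.0185 without the block and -0.42 without Acta2GFP (to 0.36 without PdgfrbGFP). DESeq2 called 4336 genes between mural cells and fibroblasts, 2068 between perimysial and endomysial, 796 between paramysial and endomysial (1 member), 1099 between paramysial and perimysial, 848 between clusters 9 and 2, 993 between cluster 10 and endomysial cells (3 members) and 111 between muscles. With no filter on low counts, 225 genes were called between paramysial and perimysial cells, 345 between clusters 9 and 2, and 274 in cluster 10 (2 members). With plate and muscle as the unit 1375 were called in perimysial cells, 23 between clusters 9 and 2 and 111 in cluster 10 (1 member), and without the replicate block 8 between paramysial and endomysial cells. With each strain left out in turn, the genes called ranged from 1230 to 2257 (mural; 2 to 5 members), 395 to 1416 (perimysial), 10 to 64 (paramysial against endomysial), 60 to 118 (paramysial against perimysial; 1 to 3 members), 35 to 50 (clusters 9 and 2; 0 to 1 members) and 0 to 216 (cluster 10; 0 to 2 members). The cause was not tested. Replicate numbers of the labels do not pair samples, and the block is the strain label. Of 195 levels, 7 moved by more than 1 SD, all in paramysial cells, where a minimum of 10 cells left the pool alone (Col14a1 318, Col16a1 95.3, Col22a1 17.0). With detection at 10 in place of 100 scaled counts, 24 of 30 shares rose.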
